A study of Mus musculus with 3 samples.

Results

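Mature naive B cells are the recirculating end product of B cell development: resting lymphocytes that have finished rearranging their antigen receptor and carry it as both IgM and IgD, together with CD23 and CD21, until antigen and T cell help activate them. In mouse bone marrow they lie beside their own precursors, which share most B cell genes but not IgD or CD23, and they come and go with the blood. Here they were selected by measured UMIs (counted RNA molecules) in single cells: at least 2 UMIs of Ighd (the IgD heavy chain) and Fcer2a (CD23, the low-affinity IgE receptor) together, at least 2 UMIs of Cd79a and Cd79b (the signalling chains of the B cell receptor), no UMI of Cd3d, Cd3e or Cd3g (T cell receptor subunits) or of the division genes Mki67 and Top2a, and under 2% of UMIs from the neutrophil genes S100a8 and S100a9. This gate held 7346 of 71014 filtered cells, or 10.3%.

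The 3 groups have 1 library each. MI-E is marrow of C57BL/6J mice with myocardial infarction and an agent abbreviated in the labels as EMPA and not spelled out. MI is marrow after infarction alone, and Sham is marrow of sham-operated mice. All 3 libraries come from femur and tibia cells enriched on a Ficoll-Paque gradient, under isoflurane anaesthesia in the protocol, and the labels attach the same text on ligation of the LAD coronary artery to all 3, Sham included. The age, the time after surgery and the number of mice behind each library are not given in the sources used here. With 1 library per group no difference below was tested. Values describe these libraries, and intervals are exact 95% intervals that cover counting error only.

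The gate held 2514 cells in MI-E, 1323 in MI and 3509 in Sham, with 3799893, 2042575 and 7091477 UMIs in that order. These cells were shallow, with medians of 1122 UMIs in MI-E, 1109 in MI and 1477 in Sham, and median mitochondrial shares of 3.47%, 2.92% and 3.25% in the same order. Levels are CPM, the UMIs of a gene per 1000000 UMIs summed over the gated cells of a library. Between 156 and 176 cell barcodes occurred in each pair of libraries, 1 of them among gated cells in each pair.

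The label was checked against markers that the gate did not use. Bank1, a B cell scaffold protein of receptor signalling, stood at 628 CPM in MI-E, 441 in MI and 479 in Sham gated cells. In B lineage cells without any Ighd or Fcer2a UMI it stood at 227, 182 and 104 CPM in that order, and in T cells at 2.48, 1.94 and 3.65 CPM. Fcmr, the receptor for IgM, stood at 478 CPM in MI-E, 453 in MI and 608 in Sham gated cells, against 177, 212 and 160 CPM in the B cells outside the gate and 0.971 to 2.48 CPM in T cells. Rag1, which cuts the receptor genes of precursors, was at 14.5 CPM in MI-E, 14.2 in MI and 47.4 in Sham gated cells, and at 208, 103 and 330 CPM in the B cells outside the gate. The marginal zone list summed to 316 CPM in MI-E, 383 in MI and 367 in Sham gated cells, against 171, 154 and 287 CPM over all filtered cells. Most of it was Mzb1, a chaperone also made by plasma cells, at 227, 293 and 271 CPM, while S1pr3, a receptor of marginal zone cells, was at or under 2.40 CPM, with 0 UMIs in MI. The B-1 list summed to 40.5, 36.2 and 30.6 CPM, below its level over all cells (118, 108 and 105 CPM), with Cd9, a tetraspanin, at 16.1, 19.6 and 13.7 CPM and Cd5 at or under 1.69 CPM. Bank1 and Fcmr were above the level of T cells and of B cells without either gate gene, and the remainder of Rag1 was largest in Sham.

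The naive IgD B cells made up 11.2% (10.8 to 11.6) of filtered cells in MI-E, 5.64% (5.35 to 5.94) in MI and 14.0% (13.6 to 14.4) in Sham. MI was 2.48-fold below Sham (log2 ratio -1.31), MI-E was 1.98-fold above MI, and MI-E was 1.25-fold below Sham. The order of the libraries was the same for cells free of another lineage's RNA, defined below, at 10.4%, 5.08% and 12.4%. Among gated cells and B lineage cells without an Ighd or Fcer2a UMI together, the naive cells were 61.1% (59.6 to 62.6) in MI-E, 44.6% (42.8 to 46.4) in MI and 42.2% (41.1 to 43.2) in Sham. Against this B cell denominator MI and Sham lay close together and MI-E stood apart. This denominator leaves out B cells with exactly 1 UMI of the gate genes (892 in MI-E, 861 in MI and 1582 in Sham). It was also not rerun under the alternatives below. As so defined, the naive share of B cells was not lower in MI than in Sham, unlike the share of all cells. This order rests on the definition. With the left-out cells put into the denominator, MI would lie slightly below Sham, and MI-E would still stand apart.

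**Figure D1:**
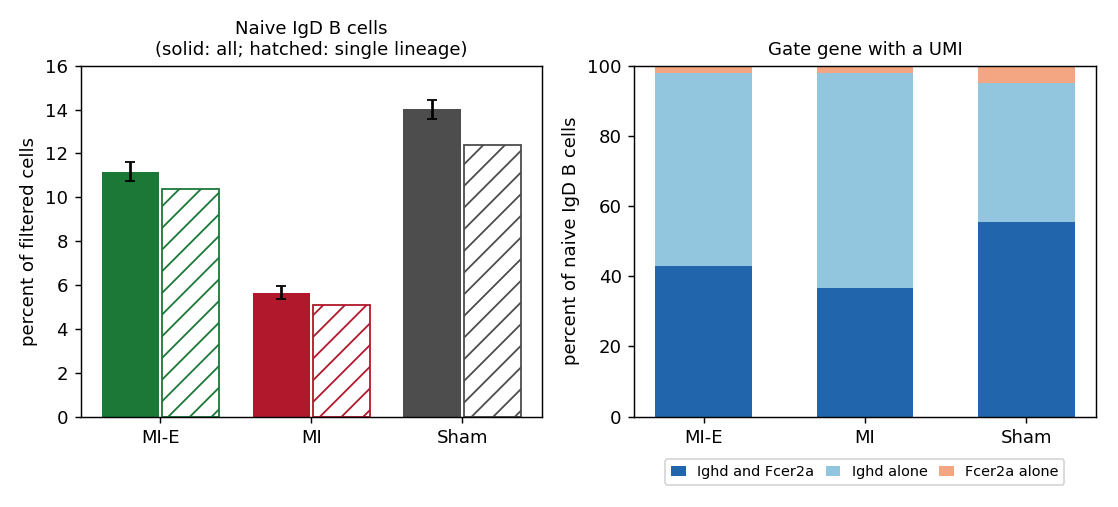
Left: naive IgD B cells as a percent of filtered cells in MI-E, MI and Sham (1 library each), with exact 95% binomial intervals on the solid bars; hatched bars leave out cells that also carry RNA of another lineage. Right: percent of naive IgD B cells with UMIs of Ighd and Fcer2a, of Ighd alone or of Fcer2a alone. MI has the lowest share at 5.64%, and Sham the largest part with both genes at 55.5%.

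The size of the ratios between shares of filtered cells moved with the cell filter, the gate and the depth, though not their direction. Gated cells were deepest in Sham (1477 UMIs), while over all filtered cells Sham was the shallowest, with medians of 2911 UMIs in MI-E, 3451 in MI and 2572 in Sham. With cells thinned to 1000 UMIs the log2 ratio was -1.79 for MI over Sham, 1.15 for MI-E over MI and -0.63 for MI-E over Sham. Over cells of at least 800 genes and 1500 UMIs the log2 ratio was -2.39 for MI over Sham and -1.18 for MI-E over Sham, and with a gate of 4 UMIs it was -2.04 for MI over Sham and 1.61 for MI-E over MI. The gradient before the assay, and the number of neutrophils and other cells in the denominator, can also set a share, and their part was not tested.

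By rule the gated cells differ in which gate gene they show, and these values are a description. Ighd and Fcer2a were both seen in 43.0% of MI-E, 36.7% of MI and 55.5% of Sham cells. Ighd alone was seen in 55.0% of MI-E, 61.1% of MI and 39.7% of Sham cells, and Fcer2a alone in 1.95%, 2.12% and 4.82% in that order. Summed over cells, Ighd stood at 2033 CPM in MI-E, 1700 in MI and 1418 in Sham, and Fcer2a at 447, 339 and 526 CPM. The 2 gate genes therefore ranked the libraries differently: Ighd was lowest, and Fcer2a highest, in Sham. Just inside the threshold, at exactly 2 UMIs, lay 761 MI-E, 566 MI and 1028 Sham cells, and just outside it, at 1 UMI, lay 892, 861 and 1582 cells. Cr2 (CD21, the complement receptor that lowers the threshold of B cell activation) was at 152 CPM in MI-E, 68.8 in MI and 116 in Sham just inside, and at 81.4, 46.4 and 54.6 CPM just outside. Bank1 was at 566, 458 and 437 CPM just inside and 506, 376 and 255 CPM just outside, and Fcmr at 418, 397 and 569 CPM inside and 345, 354 and 355 CPM outside. Vpreb3, a chaperone of the surrogate light chain stage, was at 566, 489 and 933 CPM just inside and at 877, 834 and 2002 CPM just outside.

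Cells with more lambda than kappa constant-region UMIs were 18.1% (16.6 to 19.6) in MI-E, 17.0% (15.0 to 19.1) in MI and 17.3% (16.03 to 18.6) in Sham, with overlapping intervals. Iglc2 and Iglc3 are near-identical, so only their sum with the other lambda genes was used. The cells called lambda held medians of 7, 6 and 11 lambda UMIs and 2, 2 and 4.5 Igkc (kappa) UMIs in MI-E, MI and Sham. Cells called kappa held medians of 2, 3 and 4 lambda UMIs, and 5.65%, 6.27% and 4.05% of cells were tied. The shares thus rest on a majority of few UMIs, with both classes seen in most cells. Ighm (the IgM heavy chain) stood at 4528 CPM in MI-E, 4356 in MI and 4208 in Sham, and the libraries had 2.23, 2.56 and 2.97 Ighm UMIs per Ighd UMI in that order. Ighm of MI over Sham turned to a log2 ratio of -0.31 over the deeper cells described above and -0.05 under the other scalings, against 0.05. Kappa variable segments were seen in 5.37% of MI-E, 5.52% of MI and 9.89% of Sham cells and were spread over 56, 32 and 69 segments. Lambda variable segments were seen in 1.55%, 1.285% and 3.62% of cells in that order. The kappa segment found in most cells was in 13, 7 and 29 cells, and a 3' assay at this depth sees the variable segment of few cells.

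Some barcodes of the gate also held RNA of another lineage. By a rule chosen after seeing the data (at least 8 UMIs of a monocyte, T and NK, plasmacytoid dendritic, macrophage or platelet and basophil list, at least 20 of a neutrophil, erythroid or plasma cell list, or over 4 times the median UMIs) these were 176 cells (7.001%) in MI-E, 132 (9.98%) in MI and 408 (11.6%) in Sham. They held 22.5%, 29.3% and 27.2% of the gate's UMIs. The monocyte list summed to 3101 CPM in MI-E, 3847 in MI and 3584 in Sham, and to 317, 411 and 303 CPM without these barcodes. The erythroid list summed to 951, 4766 and 10290 CPM, and to 635, 1215 and 2337 CPM without them. Both lists are among those that pick these barcodes, so a drop in each was built in. The neutrophil list summed to 3827, 6306 and 2152 CPM and hardly changed without them, at 3684, 6192 and 2181 CPM. S100a8 and S100a9, used to estimate free RNA, stood at 3.45% of their all-cell level in the MI-E gate, 4.17% in MI and 2.75% in Sham. The gate caps both genes under 2% of a cell's UMIs, and both lead the neutrophil list. Their low level, and part of the list's steadiness, thus follow from the rule. Below, "single-lineage" cells are those without such barcodes, and results that move most without those barcodes are given both ways.

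**Figure D2:**
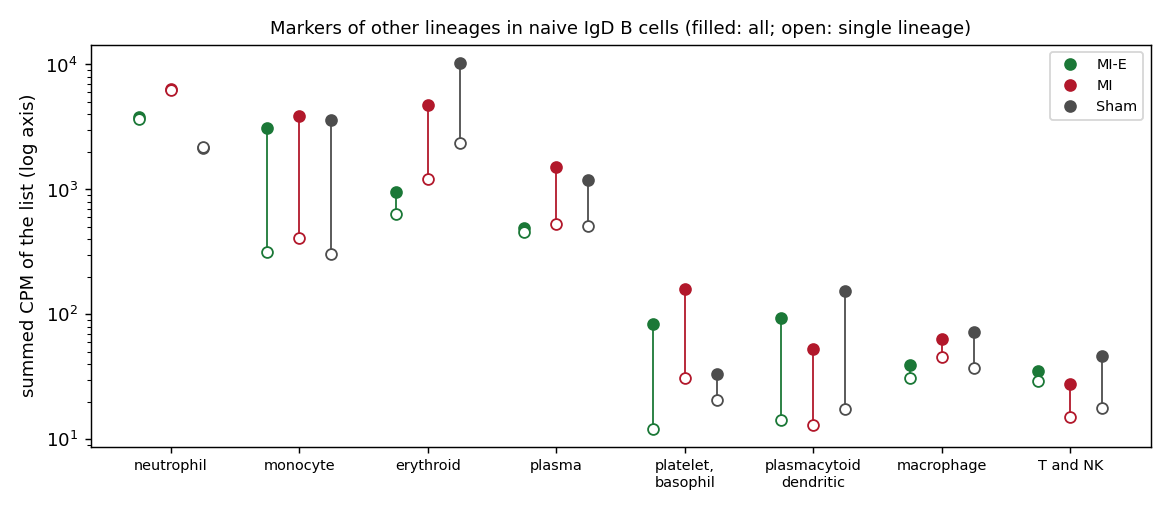
Summed CPM (log axis) of marker lists of other lineages in naive IgD B cells of MI-E, MI and Sham; filled points are all gated cells, open points single-lineage cells, joined by a line. Monocyte markers drop to between 303 and 411 CPM in single-lineage cells, a drop built in because cells with at least 8 UMIs of this list are left out. Neutrophil markers barely move, though the gate already caps S100a8 and S100a9, which lead that list.

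Few genes were far apart between libraries. Of 2789 genes with a mean of at least 50 CPM that could be compared, 23 (0.825%) were at least 2-fold higher and 15 (0.538%) at least 2-fold lower in MI than in Sham. For MI-E over MI, 3 (0.104%) of 2878 genes were at least 2-fold higher and 7 (0.243%) lower, and for MI-E over Sham 19 (0.665%) of 2857 were higher and 9 (0.315%) lower. Among single-lineage cells the shares were 0.652% higher and 0.507% lower for MI over Sham, 0.0359% and 0.0359% for MI-E over MI, and 0.607% and 0.357% for MI-E over Sham. Fewest genes were past 2-fold between MI-E and MI. The 3 comparisons share libraries. With a minimum of 10 CPM in place of 50, 87 genes were higher and 64 lower for MI over Sham, 32 and 23 for MI-E over MI, and 67 and 39 for MI-E over Sham. Several of the genes furthest apart came from the other-lineage barcodes. Prss34 and Mcpt8, basophil proteases, had 519 of 551 and 205 of 231 MI UMIs there, and Vcan, a monocyte proteoglycan, 451 of 466. Jchain, which joins IgA and IgM of plasma cells, stood at 8.95 CPM in MI-E, 370 in MI and 171 in Sham, and 9 MI cells held its 756 UMIs. Mcpt8 and Jchain belong to lists that pick the other-lineage barcodes, so part of their UMIs there is built in. The globin genes Hba-a1, Hba-a2 and Hbb-bs, lower in MI than in Sham and in MI-E than in MI, followed the erythroid list. Ifitm1, higher in MI, had 235 of 466 UMIs in those barcodes, and Wfdc17, higher in MI-E than in Sham, 966 of 1072.

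In both MI-E and MI, most genes of the glucocorticoid response stood above Sham. Glucocorticoids, released in stress, act through a nuclear receptor on lymphocytes, where they slow growth and hold cells in the marrow. Tsc22d3, which encodes the glucocorticoid-induced leucine zipper, stood at 397 CPM in MI-E, 429 in MI and 135 in Sham. Fkbp5, a chaperone of the steroid receptor induced by the hormone itself, stood at 112 CPM in MI-E, 91.1 in MI and 13.4 in Sham. MI was 3.18-fold (2.90 to 3.49) above Sham for Tsc22d3 and 6.80-fold (5.28 to 8.80) for Fkbp5, the ratio for MI-E over Sham was 2.95 and 8.37, and MI-E and MI lay within 1.23-fold of each other for both. Zfp36l2, which binds AU-rich mRNAs and hastens their loss, stood at 515, 607 and 283 CPM, and Txnip, a brake on glucose uptake, at 426, 533 and 278 CPM in MI-E, MI and Sham. Btg1, an antiproliferative gene, was close in all 3 at 1820, 1662 and 1602 CPM. Dusp1, a phosphatase that shuts off MAP kinases and is both an early response and a glucocorticoid gene, ran the other way at 41.3, 46.5 and 60.4 CPM. Of 14 measured members of the glucocorticoid list, 11 were higher in MI than in Sham (median log2 ratio 0.90; all genes 0.07, with 59.5% higher) and 12 in MI-E than in Sham (median 0.80; all genes 0.15, with 68.1% higher). For MI-E over MI the list split 7 to 7 with a median of 0.01 that turned to -0.04 and -0.05 under median-of-ratios and TMM scaling (all genes 0.06, with 59.5% higher).

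The promoters of Tsc22d3 and Cxcr4, the chemokine receptor that keeps B cells in the marrow, are shown because both genes were higher in MI-E and in MI and carry AGAACA or its reverse complement TGTTCT, letters of the element bound by the glucocorticoid receptor. Cxcr4 stood at 225 CPM in MI-E, 205 in MI and 113 in Sham. The RefSeq windows (GRCm38.p6) run from 250 bases before to 50 after the start, and capitals mark the match, at bases 66 to 71 of each window.
Tsc22d3, chrX:140600473-140600772, minus strand: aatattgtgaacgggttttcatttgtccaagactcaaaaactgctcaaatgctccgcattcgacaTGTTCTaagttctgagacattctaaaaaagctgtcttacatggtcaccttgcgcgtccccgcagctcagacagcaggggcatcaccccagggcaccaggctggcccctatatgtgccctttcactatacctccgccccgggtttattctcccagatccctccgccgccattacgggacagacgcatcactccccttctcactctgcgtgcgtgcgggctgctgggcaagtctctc
Cxcr4, chr1:128592250-128592549, minus strand: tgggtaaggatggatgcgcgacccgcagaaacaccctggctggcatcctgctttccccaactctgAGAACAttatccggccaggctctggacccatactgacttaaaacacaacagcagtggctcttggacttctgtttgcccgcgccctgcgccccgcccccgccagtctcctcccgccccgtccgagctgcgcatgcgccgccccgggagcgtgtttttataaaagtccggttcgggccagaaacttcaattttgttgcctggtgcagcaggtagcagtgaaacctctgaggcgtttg
Searched on both strands, these letters occurred in 5 of 23 promoters of the list (21.7%), from 3 of 14 genes in the table, and in 19.0% of all 32851 promoters, so the list's promoters were near the background. Tsc22d3 has 3 promoters in the table, and the one shown is the one with the match. A match is a description of these letters only.

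Many genes ranked highest over Sham lay outside the glucocorticoid list, and 4 of them are described here, others elsewhere in the text. Pik3ip1, an inhibitor of PI3 kinase, stood at 129 CPM in MI-E, 140 in MI and 28.9 in Sham, so MI was 4.84-fold (4.03 to 5.82) and MI-E 4.46-fold (3.78 to 5.28) above Sham. Ptpn22, a phosphatase that dampens antigen receptor signals, stood at 141, 116 and 31.9 CPM, and Pdcd4, an inhibitor of translation, at 409, 327 and 160 CPM. Ppp1r21, an endosomal protein, stood at 111, 112 and 32.7 CPM. Each of these 4 genes was at least 2-fold above Sham in both MI-E and MI, but Pdcd4 of MI over Sham (log2 ratio 1.03) fell short at 0.93 under both other scalings and 0.81 over the deeper cells. The quiescence list as a whole was divided: 9 of 17 members were higher and 8 lower in MI than in Sham (median 0.05, which turned to -0.05 under both other scalings), and 11 were higher in MI-E than in Sham (median 0.17). These were 52.9% and 64.7% of members, against 59.5% and 68.1% of all genes, so the list did not stand above them. Klf2, a factor that keeps lymphocytes resting and circulating, stood at 731 CPM in MI-E, 563 in MI and 866 in Sham, and Foxp1, a brake on B cell activation, at 756, 598 and 736 CPM, both lowest in MI.

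**Figure D3:**
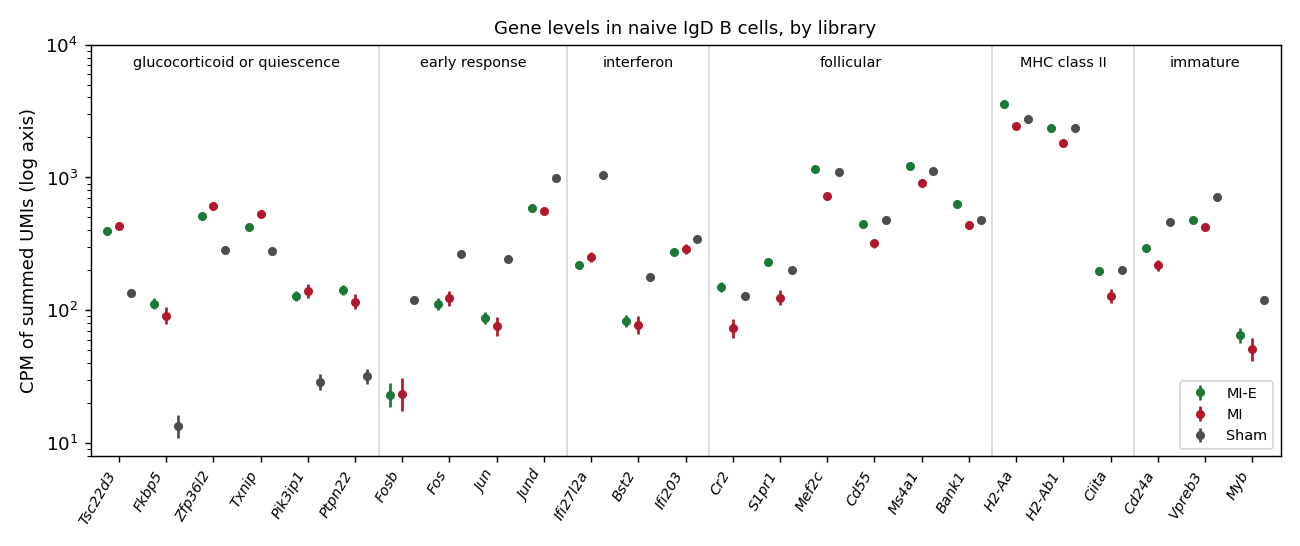
Levels of genes in naive IgD B cells, in CPM on a log axis, with MI-E, MI and Sham from left to right for each gene and exact 95% counting intervals. Tsc22d3 to Ptpn22 are lowest in Sham, Fosb to Jund and Ifi27l2a highest in Sham, and Cr2 to Bank1 lowest in MI.

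Early response genes, transcription factor and feedback genes that switch on within minutes of a stimulus, were lower in MI-E and in MI than in Sham. Fosb, a subunit of AP-1, stood at 23.2 CPM in MI-E, 23.5 in MI and 120 in Sham, 5.20-fold and 5.12-fold below Sham. Jun, its partner, stood at 87.4, 75.9 and 244 CPM, Fos at 112, 123 and 264 CPM, and Jund at 584, 561 and 985 CPM. Fos was also carried by the other-lineage barcodes (64.6% of its UMIs in MI-E, 72.6% in MI and 47.0% in Sham), and its log2 ratio of MI over Sham was -2.01 in single-lineage cells against -1.10 in all. Zfp36, which ends cytokine mRNAs, differed less, at 447, 409 and 508 CPM. Of 21 measured members of the list, 20 were lower in MI (median -0.73) and 20 in MI-E (median -0.55) than in Sham. For MI-E over MI 13 were higher, or 61.9% against 59.5% of all genes, and 8 lower (median 0.05, which turned below 0, to -0.01, under TMM scaling). Ubb, a ubiquitin gene of the stress response, was lower too, at 497, 473 and 940 CPM. The heat shock list was mixed: 8 of 11 members were lower in MI than in Sham with a median of -0.11. The cold-inducible RNA-binding genes ran opposite to the early genes. Rbm3 stood at 574 CPM in MI-E, 684 in MI and 390 in Sham, and Cirbp at 296, 282 and 167 CPM. Early response and cold-inducible genes are known to answer to the handling of cells, and the part of handling was not tested.

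Interferon-induced genes, the antiviral programme, were lower in MI-E and in MI as well. Ifi27l2a, an interferon-induced mitochondrial protein, stood at 219 CPM in MI-E, 252 in MI and 1049 in Sham, 4.79-fold and 4.17-fold below Sham. Bst2 (tetherin) stood at 83.2, 77.4 and 178 CPM, but 58.9% to 73.3% of its UMIs were in other-lineage barcodes, where plasmacytoid dendritic markers also lay, and its log2 ratio of MI over Sham was -0.53 in single-lineage cells against -1.20 in all. Ly6e, the most abundant member, was level at 1726, 1599 and 1595 CPM, and Ifi203, a DNA sensor of the family, stood at 273, 290 and 347 CPM. Of 23 measured members, 19 were lower in MI (median -0.51) and 21 in MI-E (median -0.45) than in Sham. In single-lineage cells the medians were -0.39 and -0.25. For MI-E over MI 10 were higher and 13 lower (median -0.09, and 0.05 in single-lineage cells).

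Genes of earlier B cell stages were more abundant in the Sham gate. Cd24a, a glycoprotein lost as B cells mature, stood at 293 CPM in MI-E, 217 in MI and 463 in Sham, and Vpreb3 at 477, 426 and 710 CPM. Myb, a factor of dividing precursors, stood at 64.7, 50.9 and 119 CPM, Sox4, needed by early B cells, at 66.8, 59.2 and 121 CPM, and Vpreb1, of the surrogate light chain, at 17.6, 12.2 and 57.4 CPM. Of 7 measured precursor genes, 6 were lower in MI (median -1.15) and 7 in MI-E (median -1.29) than in Sham. Il7r, the receptor for the precursor growth factor IL-7, was the exception in MI at 65.1 CPM, against 42.6 in MI-E and 48.4 in Sham. In single-lineage cells the precursor medians were -1.63 for MI and -1.54 for MI-E over Sham. Most of these genes differed less among gated cells of 1000 to 2000 UMIs. There the log2 ratio of MI over Sham was 0.10 for Myb, -0.11 for Sox4, 0.24 for Rag1, -0.12 for Vpreb3 and -0.61 for Cd24a, in place of -1.23, -1.03, -1.74, -0.74 and -1.09 over all gated cells. For MI-E over Sham it was -0.35 for Myb, -0.31 for Sox4, -0.80 for Rag1, -0.07 for Vpreb3 and -0.29 for Cd24a. Vpreb1 was the exception, with 11 UMIs in MI-E (6.64 CPM), 0 in MI and 65 in Sham (19.7 CPM), and Rag1 had 15, 16 and 52 UMIs there. Akap12, a scaffold protein, stood at 33.7 CPM in MI-E, 24.0 in MI and 75.3 in Sham. Blvrb, a biliverdin reductase abundant in red cells, stood at 72.4, 93.5 and 168 CPM.

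Genes of the mature follicular B cell ran in another order, lowest in MI, with MI-E near Sham. Cr2 stood at 150 CPM in MI-E, 73.4 in MI and 129 in Sham, so MI-E was 2.04-fold (1.70 to 2.46) above MI. S1pr1, the sphingosine phosphate receptor that lets lymphocytes leave for the blood, stood at 232, 125 and 202 CPM, 1.86-fold (1.61 to 2.14) above MI in MI-E. Mef2c, a factor of B cell survival and proliferation, stood at 1162, 731 and 1104 CPM, 1.59-fold above MI in MI-E. Ms4a1 (CD20) stood at 1218, 914 and 1109 CPM, and Cd55, which shields cells from complement, at 449, 320 and 476 CPM. Of 20 follicular surface genes, 15 were lower in MI than in Sham (median -0.49) and 17 were higher in MI-E than in MI (median 0.40). Without the gate gene Fcer2a these were 14 of 19 (median -0.46) and 16 of 19 (median 0.40). In single-lineage cells the medians of the full list were -0.41 and 0.34. Among all genes of the gate 59.5% were higher in each of these comparisons, with medians of 0.07 and 0.06. For MI-E over Sham 13 of the 20 follicular genes were higher, near the 68.1% of all genes. Their median was 0.14 against 0.15 over all genes, and it turned to -0.01 and -0.02 under the other scalings. Not all members followed. Cd200, an inhibitory ligand, stood at 171, 193 and 77.1 CPM, at least 2-fold above Sham in both, though at a log2 ratio of 0.94 for MI over the deeper cells and 0.95 for MI-E with cells thinned. Gpr183, which guides B cells along oxysterols to the follicle edge, stood at 74.5, 54.8 and 126 CPM, lowest in MI and below Sham in MI-E too.

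The rest of the B cell programme moved the same way and less far. Among all genes 59.5% were higher both in MI than in Sham and in MI-E than in MI, with medians of 0.07 and 0.06. Of the 18 B identity genes that the gate did not use, 16 were lower in MI than in Sham (median -0.30) and 17 were higher in MI-E than in MI (median 0.32). Against Sham 10 were higher and 8 lower in MI-E (median 0.07; all genes 0.15, with 68.1% higher). Cd79a, a gate gene and the most abundant of the full list, hardly differed at 2419, 2383 and 2629 CPM in MI-E, MI and Sham, while Cd72, a lectin that inhibits receptor signals, stood at 211, 143 and 275 CPM and Cd180, a Toll-like receptor relative, at 143, 95.5 and 128 CPM. Pou2f2 (OCT2, a partner of immunoglobulin transcription) was higher in both MI-E and MI, at 743 and 611 CPM against 555 in Sham. Of 28 B cell transcription factors, 23 were lower in MI than in Sham (median -0.28) and 24 were higher in MI-E than in MI (median 0.30). Against Sham 17, or 60.7%, were higher in MI-E, below the 68.1% of all genes (median 0.05, which turned to -0.10 under the other scalings). Ebf1, which commits cells to the B lineage, stood at 1582, 1389 and 1897 CPM, Pax5, which keeps them there, at 494, 353 and 431 CPM, and Bach2, which holds back plasma cell fate, at 256, 178 and 282 CPM. Id2, an inhibitor of E proteins, was the member furthest above Sham, at 94.2, 117 and 29.1 CPM, but its log2 ratio of MI over Sham was 0.76 in single-lineage cells against 2.02 in all. Of 26 receptor signalling genes outside the gate, 17 were lower in MI than in Sham (median -0.10) and 22 were higher in MI-E than in MI (median 0.30), among them Prkcb (protein kinase C beta, 302 CPM in MI-E, 184 in MI) and Ptprc (CD45, a phosphatase that primes the receptor, 922 and 641 CPM). Against Sham 20 of the 26 were higher in MI-E, with a median of 0.15, the same as over all genes; with the gate genes the median was 0.14 and turned to -0.01 and -0.02 under the other scalings. The member furthest above Sham was Inpp5d (SHIP1, which removes a PI3 kinase product), at 211 CPM in MI-E, 181 in MI and 137 in Sham. With gate genes kept, medians were smaller in single-lineage cells. For MI over Sham they were -0.22 for B identity, -0.22 for the transcription factors and -0.03 for receptor signalling. For MI-E over MI they were 0.21, 0.26 and 0.17 in that order. There 16 of 20 B identity genes were higher in MI-E than in MI, against 19 in all gated cells.

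Beside Cr2, S1pr1, Mef2c and Prkcb, the genes ranked highest in MI-E over MI were Fry (82.9 CPM in MI-E, 29.9 in MI, 63.0 in Sham), a scaffold protein, Trib2 (74.2, 36.7 and 43.0 CPM), a pseudokinase, Eef1g (490 CPM in MI-E, 306 in MI), a translation elongation factor, Zmiz1 (125 and 72.0 CPM), a coactivator, Snn (257 and 157 CPM) and Zfp36l1 (666 and 430 CPM), an RNA-binding protein of B cell quiescence. Fry, Cr2 and Trib2 were the 3 genes past 2-fold. Only Fry stayed past it in single-lineage cells and under the other scalings, where Cr2 was at log2 ratios of 0.93 to 0.98 and Trib2 at 0.96 to 0.97. At the other end, leaving the genes of other lineages aside, Dynll1, a dynein light chain, stood at 153 CPM in MI-E and 255 in MI, Micos13, of the mitochondrial inner membrane, at 129 and 210 CPM and Polr2j, an RNA polymerase II subunit, at 55.0 and 94.0 CPM. Apoe, a lipid carrier of macrophages, stood at 659 CPM in MI-E, 945 in MI and 315 in Sham, with 52.6% to 64.9% of its UMIs in other-lineage barcodes, and at 299, 633 and 202 CPM in single-lineage cells. Abca1, the cholesterol exporter, stood at 242, 152 and 87.0 CPM and Cyp4f18, which inactivates leukotriene B4, at 255, 315 and 117 CPM, both past 2-fold for MI-E over Sham, though Cyp4f18 (log2 ratio 1.13) fell to 0.98 under the other scalings. Atp1b1, a sodium pump subunit, was lower there, at 76.0, 80.3 and 149 CPM.

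**Figure D4:**
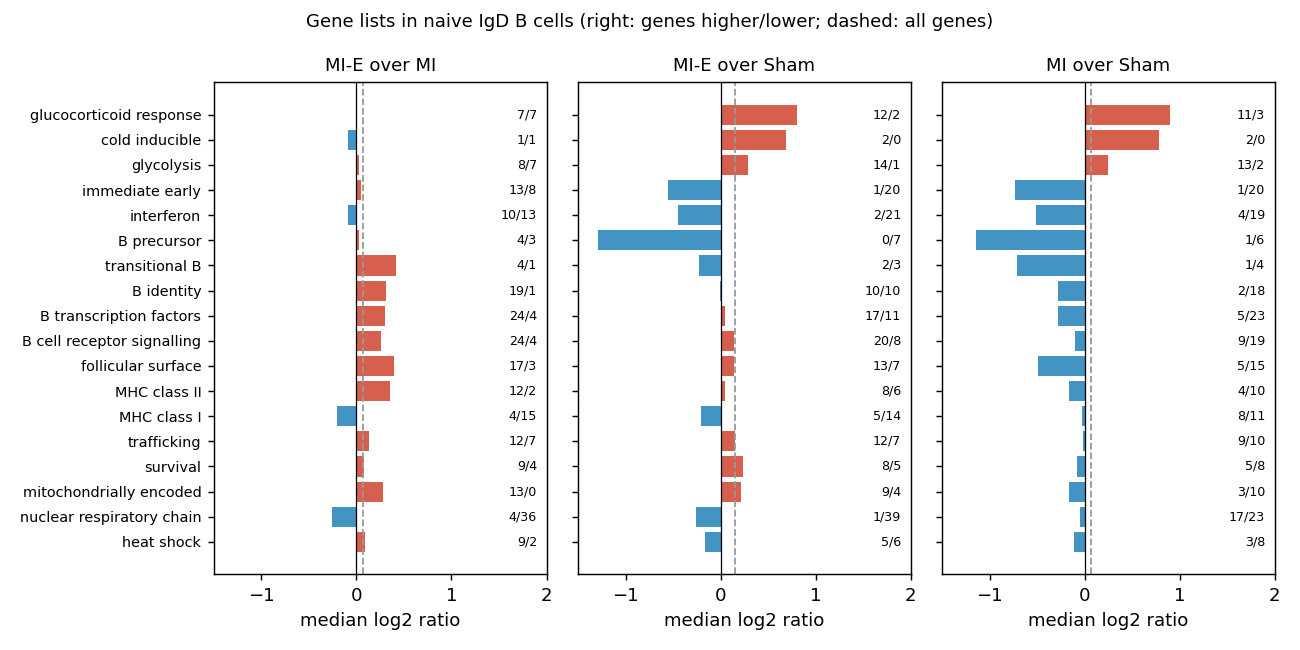
Median log2 ratio of each gene list in naive IgD B cells for MI-E over MI, MI-E over Sham and MI over Sham; numbers at the right are members higher and lower, and the dashed line is the median of all 7863 genes of at least 10 CPM. B cell programme lists point up for MI-E over MI and down for MI over Sham, and the glucocorticoid list is at 0.01 for MI-E over MI, which turns to -0.04 and -0.05 under the other scalings.

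Antigen presentation split by class. MHC class II genes, which show antigen to helper T cells, were lowest in MI: H2-Aa stood at 3563 CPM in MI-E, 2450 in MI and 2737 in Sham, H2-Ab1 at 2343, 1805 and 2376 CPM and their chaperone Cd74 at 7709, 5861 and 7955 CPM. Ciita, the switch factor for these genes, stood at 197, 128 and 201 CPM. Of 14 members, 10 were lower in MI than in Sham (median -0.16, against 0.07 and 59.5% higher for all genes). In MI-E, 12 were higher than in MI (median 0.36, against 0.06 and 59.5% higher for all genes). Against Sham 8, or 57.1%, were higher in MI-E, below the 68.1% of all genes (median 0.05, which turned to -0.10 and -0.11 under the other scalings). MHC class I genes differed less and in another order. H2-K1 stood at 1141, 1454 and 1326 CPM and B2m, the shared light chain, at 1251, 1300 and 1353 CPM. Of 19 class I members, 15 were lower in MI-E than in MI (median -0.20) and 14 in MI-E than in Sham (median -0.21), and the proteasome activator gene Psme2 stood at 89.5, 117 and 133 CPM. Class I genes such as H2-K1, H2-D1 and H2-Q7 are close relatives, and reads may be split between them.

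The 2 genomes of the respiratory chain also parted in MI-E. All 13 mitochondrially encoded genes were higher in MI-E than in MI (median 0.28), with mt-Co1 at 8172 CPM in MI-E, 6727 in MI and 6598 in Sham and mt-Nd3 at 682, 438 and 479 CPM. Of 40 nuclear genes of the chain, 36 were lower in MI-E than in MI (median -0.25) and 39 in MI-E than in Sham (median -0.26), with Cox8a at 628, 776 and 771 CPM and Ndufs5 at 93.4, 143 and 150 CPM. Both orders were seen outside naive B cells too: the encoded genes were higher in MI-E than in MI for 13 of 13 members in the other B cells and in T cells, and 38 and 33 of the 40 nuclear genes were lower there. The median mitochondrial share per cell, 3.47% in MI-E against 2.92% in MI, counts UMIs of the encoded genes and so moves with them by construction. The cause was not tested. Glycolysis genes were higher than in Sham for 13 of 15 members in MI (median 0.25) and 14 in MI-E (median 0.29). Among all genes 59.5% and 68.1% were higher in that order, with medians of 0.07 and 0.15. For MI over Sham, 14 of the 15 were also higher in the other B cells and 12 in T cells. Gapdh stood at 424, 519 and 407 CPM and Pkm at 240, 241 and 164 CPM. In single-lineage cells Gapdh of MI over Sham was level at a ratio of 1.00, against 1.27 in all, and 11 of 15 members were higher (median 0.15). Among all genes there 60% were higher, with a median of 0.09. With cells thinned to 1000 UMIs the glycolysis median of MI over Sham turned to -0.04 over all gated cells.

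Survival and homing genes gave no single direction. Bcl2, which blocks cell death, stood at 166 CPM in MI-E, 132 in MI and 110 in Sham, Mcl1, a relative, at 565, 480 and 493 CPM, and the death gene Bax at 87.4, 111 and 118 CPM. Tnfrsf13c (the BAFF receptor, on which naive B cells depend) stood at 328, 244 and 258 CPM and Tnfrsf13b (TACI) at 211, 210 and 226 CPM. Of 13 survival genes, 9 were higher in MI-E than in MI (median 0.08) and 5 in MI than in Sham (median -0.08), where 59.5% of all genes were higher in each comparison, with medians of 0.06 and 0.07. Of 17 NF-kB genes, 9 were higher in MI than in Sham (median 0.01, which turned to -0.09 under the other scalings), with Birc3, an inhibitor of apoptosis, at 242, 190 and 131 CPM. Of 19 trafficking genes, 9 were higher in MI than in Sham (median -0.02) and 12 in MI-E than in MI (median 0.13), near the share of all genes. Cxcr4, which retains cells in marrow, and S1pr1, which releases them, were both highest in MI-E. They differed at the low end: Cxcr4 was lowest in Sham and S1pr1 lowest in MI. Cxcr5, the receptor for the follicle, was level at 56.8, 62.7 and 56.1 CPM.

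For the genes given next, these orders were seen in parts of the gate as well. In cells with both gate genes, with Ighd alone and of 1000 to 2000 UMIs, the log2 ratio of MI over Sham was 1.68, 1.68 and 1.62 for Tsc22d3, 2.62, 2.69 and 2.51 for Fkbp5 and -2.78, -2.00 and -2.65 for Fosb. That of MI-E over MI was 1.10, 0.92 and 0.92 for Cr2, 0.91, 0.90 and 0.81 for S1pr1 and 0.61, 0.68 and 0.62 for Mef2c. Levels within the depth range were 199 CPM in MI-E, 105 in MI and 176 in Sham for Cr2. Of the genes drawn in the plot of subsets, Myb changed direction within it for MI over Sham. For MI-E over MI, Myb turned there to -0.45, and Fosb, nearly level over all gated cells, stood at 0.17. Just outside the gate, at 1 UMI, some mature B cell genes did not keep the order of MI below Sham. The log2 ratio was 0.03 for Mef2c, 0.16 for Cd74 and 0.61 for H2-Aa, while Cr2 stayed at -0.23 and S1pr1 at -0.58.

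**Figure D5:**
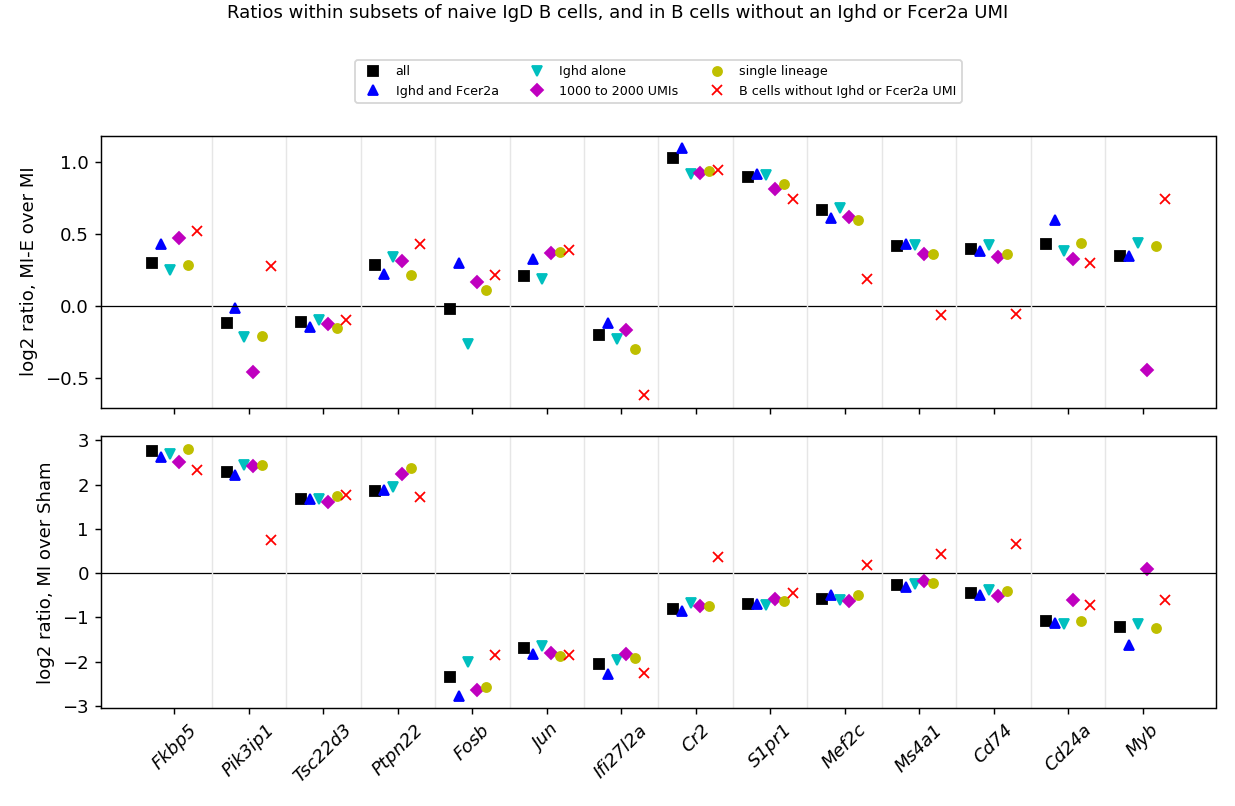
Log2 ratios of MI-E over MI (top) and MI over Sham (bottom) for 14 genes in all naive IgD B cells, in subsets of them and in B lineage cells without an Ighd or Fcer2a UMI. Subset points lie together for Tsc22d3, Cr2 and S1pr1 and spread for Myb. Within 1000 to 2000 UMIs Myb is at 0.10 in MI over Sham and at -0.45 in MI-E over MI.

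Cells outside the gate were set beside the naive cells. In B lineage cells without an Ighd or Fcer2a UMI, a pool that holds precursors, Tsc22d3 stood at 366 CPM in MI-E, 391 in MI and 115 in Sham, and in T cells at 167, 225 and 46.2 CPM. Fosb and Ifi27l2a were lower in MI than in Sham in both of these pools (log2 ratios -1.85 and -2.26 in the B cells, -1.79 and -1.97 in T cells). Pik3ip1 differed: its log2 ratio of MI over Sham was 2.28 in naive cells, 0.76 in the other B cells and 1.75 in T cells. The follicular surface list of MI over Sham had a median of -0.49 in naive cells and 0.13 in the other B cells, and the MHC class II list -0.16 and 0.63. H2-Aa in the other B cells stood at 1109 CPM in MI-E, 972 in MI and 462 in Sham. These contrasts between pools were not tested, and the stages within the other B cells can differ between libraries. Of the MI-E over MI differences, Cr2 had a log2 ratio of 1.03 in naive and 0.94 in the other B cells, and Mef2c 0.67 and 0.19. B programme lists were also higher in MI-E than in MI in the other B cells. There 15 of 20 B identity genes (median 0.23), 25 of 28 transcription factors (0.28) and 21 of 28 receptor signalling genes (0.15) were higher. Among all genes 57.9% were higher there, with a median of 0.06.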

How the data were processed

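Single-cell RNA of 3 marrow libraries (MI-E, MI and Sham, 1 each) was measured with the 10x 3' v3.1 assay and 150 bp paired reads, per the labels. The values are whole-number UMI counts per gene and cell, as deposited by the authors, from 32285 genes. The submitters' processing notes name Cell Ranger 5.0.1 and mm10. The gene annotation's release was not stated there. The files held 22857, 23810 and 25721 barcodes with 109451500, 127330601 and 99657072 UMIs.

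The gate was applied to cells that had at least 300 genes and 500 UMIs and no more than 10% mitochondrial UMIs. Doublets were not called: a planned rule of 2 UMIs of another lineage left 183, 13 and 95 cells and was replaced by the rule in the text. UMIs were summed per library and scaled to CPM. Counting intervals are exact (Clopper-Pearson, Poisson, conditional binomial) and were tested on simulated data. With 1 library per group no test was run. Lists were described by counts and medians over genes of at least 10 CPM.

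Genes were named by rule: the first 10 in each direction and comparison, ranked by the interval bound nearest 1 among genes of at least 50 CPM and not lower in the gate than 0.5 times the level over all cells, markers and gate genes, and from each list the 3 most abundant members and its extremes. For several lists, among them heat shock, glycolysis, trafficking and both respiratory chain lists, only some of these genes are given. Other genes named were chosen after their values were seen. A gene that the rule names is not reported here. The members and lists were chosen with earlier results of these data known. Alternatives were a stricter cell filter, gates of 1 and 4 UMIs, thinning to 1000 UMIs, other scalings, equal weight of cells, subtraction of free RNA, leaving out each gene's top cell, other CPM minimums and, added after seeing the data, leaving out barcodes of another lineage and leaving gate genes out of lists. Replicates could not be left out.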

Additional observations from a re-analysis of the deposited data

How the results depend on the processing

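Shares of filtered cells, as log2 ratios, kept their direction under every alternative run. Over cells of at least 800 genes and 1500 UMIs they were -2.39 for MI over Sham, 1.21 for MI-E over MI and -1.18 for MI-E over Sham. With a gate of 1 UMI they were -1.13, 0.70 and -0.43 in that order, with a gate of 4 UMIs -2.04, 1.61 and -0.43, and with cells thinned to 1000 UMIs -1.79, 1.15 and -0.63. Counts of genes past 2-fold moved more. For MI over Sham, 23 genes higher became 87 with a 10 CPM minimum and 51 over the deeper cells, and 15 lower became 64 and 29, 24 with a gate of 1 UMI and 23 under TMM and under median-of-ratios scaling. For MI-E over MI, 3 higher became 32 and 5, 6 with a gate of 4 UMIs, and 1 under each of both scalings, thinning and without barcodes of another lineage; 7 lower became 23 and 13, 3 with a gate of 1 UMI, 4 with a gate of 4 UMIs, 2 thinned and 1 without those barcodes. For MI-E over Sham, 19 higher became 67 and 34, 10 under TMM and 11 under median of ratios, and 9 lower became 39 with a 10 CPM minimum, 16 with a gate of 1 UMI and 19 under both scalings. The cause was not tested. Of 3727 alternative values of 339 gene ratios, 212 turned in sign, 19 of them for a ratio past 2-fold. All 19 were in genes of other lineages, carried by few cells. Prss34 turned with a gate of 4 UMIs to -1.61 for MI over Sham and 3.50 for MI-E over MI, when thinned to -1.30, to 1.22 and, for MI-E over Sham, to -0.078, and there without the other barcodes to -1.35. Mcpt8 turned with a gate of 4 UMIs to -0.34 and 2.16, when thinned to -0.55, 0.34 and -0.22, and for MI-E over Sham to -0.96 without those barcodes and -0.12 with equal weight of cells. Jchain turned when thinned to -1.74 and 0.96, without those barcodes to -2.32 and 1.70, and for MI-E over Sham with a gate of 1 UMI to 0.35. Hba-a1 turned to 0.063 for MI-E over MI when thinned. Of 795 alternative medians of 66 list results, 74 turned in sign. The other scalings moved all ratios by -0.10 for MI over Sham, by -0.05 and -0.06 for MI-E over MI and by -0.15 for MI-E over Sham (log2). The planned doublet rule was not used, since it left 13 cells in MI. No paired analysis was possible because each group has 1 library. Median depths were 1109 to 1477 UMIs per cell, so genes under 50 CPM rest on few UMIs and a single cell can set them.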
